A study of Homo sapiens with 6 samples.

Results

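Transcripts of 9 ADAM genes were read in NCI-H1299, an established human lung cancer cell line: ADAM8, ADAM9, ADAM10, ADAM12, ADAM15, ADAM17, ADAM19, ADAM22 and ADAM23. They were taken by name from a count table of 64253 Ensembl identifiers, and all 9 had enough counts to be tested among 16091 genes. The rule for taking them uses no measured value, but the genes were chosen with earlier results of these data known. The 2 groups of 3 libraries each were compared, wild type H1299 cells and H1299 cells that overexpressed MTSS1 from an mCherry-tagged plasmid, and MTSS1 is a membrane-bending scaffold protein that acts on the actin cytoskeleton. Per the labels, hygromycin selection and flow sorting followed the introduction of the plasmid, HEK293T cells are named in connection with the transfection, and both groups grew in DMEM with serum. No group carried a control plasmid, so MTSS1, the tag, the selection and the sort cannot be told apart. The labels do not say whether the 3 replicates of a group came from separate cultures or whether the overexpressing cells were 1 clone or a pool, so every p-value here covers just the spread among the libraries, which may be technical.

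ADAM proteins are membrane-anchored relatives of snake venom metalloproteinases, built from a prodomain, a metalloprotease domain, a disintegrin domain and a short cytoplasmic tail. The catalytic members cut the ectodomains of other membrane proteins, a step called shedding, which frees growth factors, cytokines and adhesion molecules or prepares a receptor such as Notch for cleavage inside the membrane by gamma-secretase. A zinc ion in the active site is held by 3 histidines, and members without them cannot cut. In lung cancer the family is known mainly through ADAM17 and ADAM10, which release ligands of the EGF receptor and cut Notch.

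The coding sequence at the zinc site shows which of the genes encode a protease. The stretch of 33 bases below starts at the first zinc-binding histidine codon, is written 5′ to 3′ on the coding strand, and has the codons at the 3 histidine places in capitals. It was read from GENCODE release 29 transcripts (GRCh38). For ADAM22 and ADAM23, which lack the motif, the place was found by aligning the translated protein with that of ADAM12. The stretch lies in coding exon sequence in each case and falls within 1 exon in each transcript shown except that of ADAM10, where it spans 2.
ADAM8, exon 11, chr10:133271880-133271912, minus strand: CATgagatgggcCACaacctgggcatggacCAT
ADAM10, exon 9 and a neighbouring exon, chr15:58627881-58633225, minus strand: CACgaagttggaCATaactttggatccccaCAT
ADAM12, exon 11, chr10:126094059-126094091, minus strand: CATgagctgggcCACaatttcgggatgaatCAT
ADAM15, exon 11, chr1:155056995-155057027, plus strand: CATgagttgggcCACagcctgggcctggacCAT
ADAM17, exon 11, chr2:9510078-9510110, minus strand: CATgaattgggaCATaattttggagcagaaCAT
ADAM19, exon 11, chr5:157505734-157505766, minus strand: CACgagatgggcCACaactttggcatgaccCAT
ADAM22, exon 13, chr7:88134365-88134397, plus strand: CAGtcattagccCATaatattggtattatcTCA
ADAM23, exon 13, chr2:206562239-206562271, plus strand: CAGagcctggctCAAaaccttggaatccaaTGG

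All 3 histidine codons, and the codon of the catalytic glutamate beside the first, were present in 7 of the 9 genes, ADAM9 included. ADAM22 kept 1 of the 3 and ADAM23 kept 0, and neither held the glutamate codon. The name sheddase therefore fits 7 of the genes by sequence, and ADAM22 and ADAM23 are adhesion receptors of the LGI proteins in neurons rather than proteases. These 2 were also the most alike pair among the 9 genes, with 51.3% of 751 aligned residues identical, followed by ADAM12 and ADAM19 with 48.4% of 868. ADAM10 and ADAM17, the best known sheddases, shared 31.4% of 700 residues with each other, and the least alike pair was ADAM15 and ADAM17 with 26.1% of 720.

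Depth ran from 13883380 to 29479453 counts per library. MTSS1 stood at 18.0 to 24.3 CPM (reads of a gene scaled to a common library size with edgeR's TMM factors) in wild type libraries, against 544 to 568 CPM in overexpressing ones, as the labels say. Replicate 1 of each group stood apart from the other 4 libraries on the first principal component (34.8% of the variance). Of 7 markers fixed for the labelled lung adenocarcinoma type, the keratins KRT8 and KRT18 were abundant. The summed list level was 571 to 853 CPM in wild type and 259 to 470 CPM in overexpressing libraries. Of 5 tested markers 1 was called lower, KRT8 (means 164.8 and 49.6 CPM), and 0 higher. KRT18 also had a lower mean in overexpressing cells (521.7 and 299.0 CPM), while NKX2-1, KRT7 and EPCAM had higher means, none of these called. SFTPB was at 0 counts in all 6 libraries, and NKX2-1, NAPSA, KRT7 and EPCAM stood below 3 CPM in each. The summed levels of 5 HEK293T markers were 57.7 to 63.4 CPM in wild type and 67.5 to 76.9 CPM in overexpressing libraries (0 of 3 tested called, LHX1 at 0 and PAX2 at most 0.165 CPM). Those of 5 leukocyte, 3 endothelial and 5 fibroblast markers were at most 3.77, 2.36 and 8.80 CPM in any library. Of these, 3 leukocyte and 4 fibroblast markers were tested and 0 called. The endothelial list had 0 tested markers, so no call was possible there. The part of these markers in the results was not tested. In bulk libraries, fewer cells that hold a transcript and less of it per cell cannot be told apart.

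Levels can be compared between genes only per length, and here CPM was divided by the length in kb of all annotated exons of a gene. On this scale the wild type cells held mostly ADAM17 (24.1 ± 0.401 CPM per kb; SD, n = 3), ADAM9 (20.7 ± 0.620), ADAM10 (13.75 ± 1.02) and ADAM15 (13.4 ± 1.22). ADAM22 followed at 5.62 ± 0.375, ADAM23 at 3.73 ± 0.214 and ADAM19 at 3.28 ± 0.0477 CPM per kb, while ADAM8 (0.379 ± 0.150) and ADAM12 (0.136 ± 0.0353) were lowest. In wild type libraries each neighbouring pair in this order was separated in all 3 libraries except ADAM10 and ADAM15, whose libraries overlapped. In the overexpressing cells, on this same scale, ADAM15 (15.4 ± 2.89) stood above ADAM10 (10.95 ± 0.576) with no overlap. ADAM15 overlapped ADAM9 (16.1 ± 1.51), which in turn overlapped ADAM17 (19.8 ± 2.50). The other places in the order were the same in both groups.

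The length matters most for ADAM10, whose annotated exons cover 13.1 kb against a coding part of 2.24 kb. Per kb of coding sequence, a scale added after the data were seen, ADAM10 came first in wild type cells with 80.4 ± 5.98 CPM per kb, ahead of ADAM9 with 50.1 ± 1.52 and ADAM17 with 43.0 ± 0.713 (SD, n = 3). ADAM22 then stood above ADAM15 (22.9 ± 1.53 and 16.96 ± 1.54). Per kb of the principal transcript ADAM9 came first, with 32.05 ± 0.970 CPM per kb, and ADAM17 second with 24.1 ± 0.399. By mean, ADAM9, ADAM10 and ADAM17 held the top 3 places in wild type cells on all 3 scales, and ADAM8 and ADAM12 the last 2. ADAM10 and ADAM15 overlapped in wild type libraries per kb of exon. They also overlapped per kb of the principal transcript (14.43 to 16.46 and 13.56 to 16.26 CPM per kb). In overexpressing cells the order of ADAM10 and ADAM15 depended on the length. Per kb of coding sequence ADAM10 (64.05 ± 3.375) stood above ADAM15 (19.42 ± 3.651), without overlap. Per kb of the principal transcript ADAM15 (17.05 ± 3.205) stood above ADAM10 (12.57 ± 0.6626), also without overlap.

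**Figure D1:**
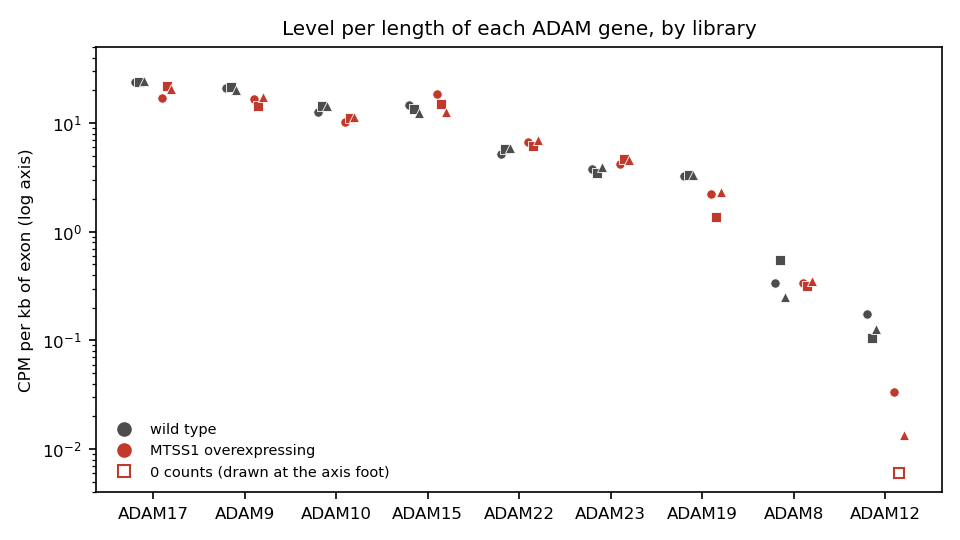
Level of each ADAM gene per length (CPM per kb of exon, log axis) in each of the 6 libraries, with genes ordered by their wild type mean. ADAM17, ADAM9, ADAM10 and ADAM15 stand above 10 CPM per kb in every library, and ADAM12 is the lowest in every library, with 0 counts in overexpressing replicate 2 (open symbol).

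The comparison between the groups asks whether ADAM transcript levels differed in cells overexpressing MTSS1. ADAM12 fell, and it was the only 1 of the 9 genes past the threshold of edgeR's quasi-likelihood test (Benjamini-Hochberg adjusted p under 0.05 over all tested genes). Of all tested genes 4.28% passed, 2.45% lower and 1.82% higher in overexpressing cells. A count of 1 among 9 genes is given as a description and not as a result about the family. The libraries of the groups did not overlap for 7 of the 9 genes, 5 of them lower (ADAM9, ADAM10, ADAM12, ADAM17 and ADAM19) and 2 higher (ADAM22 and ADAM23), and 25.5% of all tested genes did not overlap, 13.5% lower and 12.1% higher. The median log2 fold change of the 9 genes was -0.28, against 0.00 for all tested genes. At an unadjusted p under 0.05 by edgeR, the same 7 genes passed, 5 lower and 2 higher, against 19.8% of all tested genes, 10.7% lower and 9.15% higher.

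The titles of the libraries carry numbers that form 3 neighbouring pairs of 1 wild type and 1 overexpressing library, and the labels do not say that neighbours share a day or batch. A fit with these pairs as a block is given beside each gene whose call it changes.

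ADAM10 (ENSG00000137845, chr15:58588807-58749978) cuts Notch receptors, cadherins and the amyloid precursor protein. It stood at 165, 188 and 188 CPM in wild type replicates 1 to 3 and at 135, 146 and 150 CPM in the overexpressing ones. All overexpressing libraries lay below all wild type libraries. The log2 fold change was -0.33 (SE 0.09, 95% interval -0.52 to -0.14, adjusted p by edgeR = 0.065), which did not pass the test (8.1e-04 with the block). The median of its 50 nearest tested genes on chromosome 15 was -0.13, and with that median as an offset ADAM10 had a log2 fold change of -0.19 (adjusted p by edgeR = 0.32).

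ADAM17 (ENSG00000151694, chr2:9488486-9556732), also called TACE, releases TNF and several EGF receptor ligands. It stood at 105, 105 and 108 CPM in wild type against 75.1, 96.0 and 91.6 CPM in overexpressing libraries, with no overlap and the lowest value in overexpressing replicate 1. The log2 fold change was -0.28 (SE 0.10, 95% interval -0.50 to -0.06, adjusted p by edgeR = 0.15) and did not pass (0.012 with the block). Without that library it was -0.17. The gene overlaps IAH1 on the opposite strand (3386 counts over the 6 libraries), and the strand setting of the counting is not given in the sources used here; reads of the 2 genes may not be fully separated.

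ADAM9 (ENSG00000168615, chr8:38996869-39105144) is a widely expressed protease that can shed HB-EGF. It stood at 123.5, 126.5 and 119.1 CPM in wild type against 98.4, 85.6 and 102.8 CPM in overexpressing libraries, again with no overlap. Its log2 fold change of -0.36 (SE 0.09, 95% interval -0.56 to -0.17) missed the threshold by little (adjusted p by edgeR = 0.052; 0.0027 with the block), and it passed with library totals in place of TMM factors (log2 fold change -0.38, adjusted p by edgeR = 0.041). The 50 neighbours of ADAM9 centred on -0.04.

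ADAM12 (ENSG00000148848, chr10:126012381-126388455) encodes meltrin alpha, known from muscle cell fusion, placenta and tumour tissue, which can cut IGF-binding proteins and EGF receptor ligands. It had 29, 28 and 30 reads in wild type libraries, or 1.54, 0.926 and 1.13 CPM. In the overexpressing libraries it had 4, 0 and 3 reads, or 0.294, 0 and 0.120 CPM. Every wild type library lay above every overexpressing one, at a level where single reads count. The pooled reads, 87 against 7, gave a ratio of 10.6 after scaling (exact 95% interval 4.93 to 27.2, which covers counting error only). The log2 fold change was -3.31 (SE 0.77, 95% interval -5.03 to -1.59, adjusted p by edgeR = 0.045, n = 3 per group), and the neighbours on chromosome 10 had a median of 0.04. The call was lost in 5 of the 6 fits made without 1 library (highest adjusted p by edgeR 0.15; it held without MTSS1 overexpressing replicate 1, with 0.046) and with the neighbour offset (0.062), while the log2 fold change lay between -4.21 and -2.60 in the 6 fits. Without both replicate 1 libraries it was -4.02 (adjusted p by edgeR = 0.11).

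ADAM19 (ENSG00000135074, chr5:157395534-157575775), meltrin beta, is the closest relative of ADAM12 in the group and can shed neuregulin. It stood at 22.8, 23.3 and 23.4 CPM in wild type libraries, a narrow range. The overexpressing libraries held 15.7, 9.69 and 16.3 CPM, all lower, with replicate 2 the lowest. The log2 fold change was -0.74 (SE 0.19, 95% interval -1.16 to -0.32, adjusted p by edgeR = 0.058; 0.0029 with the block), the second lowest of the 9 genes, and did not pass; with library totals in place of TMM factors it was -0.76 and passed (adjusted p by edgeR = 0.049). The neighbours on chromosome 5 had a median of 0.03. ADAM19 overlaps CYFIP2 on the opposite strand (1068 counts over the 6 libraries), so the caveat on strand applies to it as well. The closely related ADAM12 and ADAM19 had the 2 lowest estimates of the group, and a link to their sequence likeness was not tested. ADAM19 stood far above ADAM12 in level per kb of exon (3.28 and 0.136 CPM per kb in wild type cells).

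ADAM15 and ADAM8 showed no separation. ADAM15 (ENSG00000143537, chr1:155050566-155062775), a protease whose disintegrin domain can bind integrins, stood at 47.9, 43.8 and 40.0 CPM in wild type against 60.3, 49.0 and 41.5 CPM in overexpressing libraries, and the groups overlapped. Its log2 fold change was 0.19 (95% interval -0.12 to 0.50, adjusted p by edgeR = 0.51). ADAM8 (ENSG00000151651, chr10:133262403-133276868), known best from leukocytes, had 15 to 54 reads per library and stood at 1.11, 1.79 and 0.826 CPM in wild type against 1.10, 1.04 and 1.16 CPM in overexpressing libraries. Its log2 fold change of -0.18 had a 95% interval from -1.06 to 0.70 (adjusted p by edgeR = 0.86), the widest interval of the 9 genes after that of ADAM12.

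The genes without a zinc site had estimates above 0, as ADAM15 did. ADAM22 (ENSG00000008277, chr7:87934143-88202889) stood at 57.2, 62.8 and 65.3 CPM in wild type against 73.4, 68.0 and 76.1 CPM in overexpressing libraries, with no overlap. Its log2 fold change was 0.23 (SE 0.09, 95% interval 0.03 to 0.43, adjusted p by edgeR = 0.18; 0.023 with the block), and its 50 neighbours on chromosome 7 had a median of 0.19. With the offset it was 0.05 (adjusted p by edgeR = 0.855). ADAM23 (ENSG00000114948, chr2:206443539-206621130) stood at 24.1, 22.5 and 25.2 CPM in wild type against 26.8, 30.1 and 29.6 CPM in overexpressing libraries, also without overlap. Its log2 fold change was 0.27 (SE 0.11, 95% interval 0.03 to 0.51, adjusted p by edgeR = 0.195; 0.0405 with the block), and its neighbours centred on 0.05. ADAM22 and ADAM23 both missed the threshold. A test of proteases against the genes without a zinc site was not made.

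**Figure D2:**
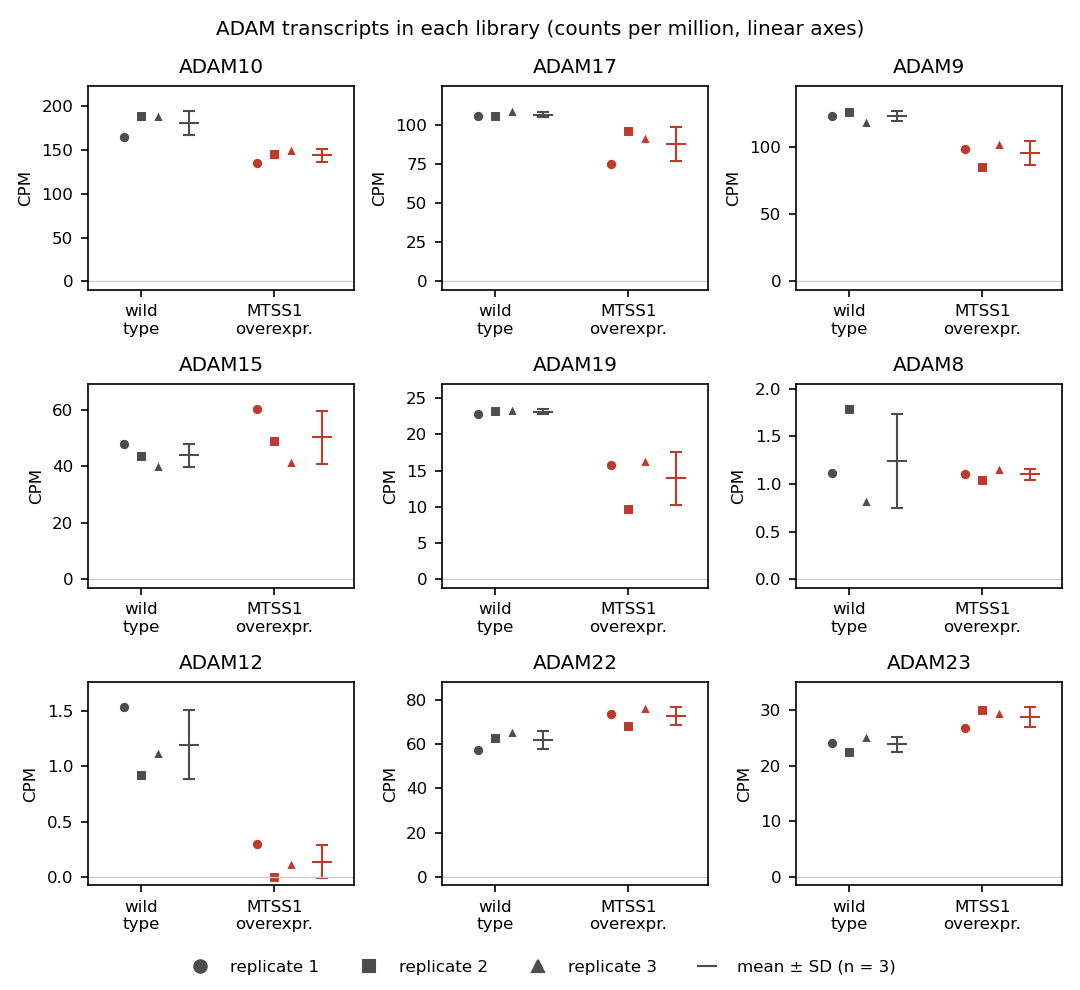
CPM of each ADAM gene in each library (linear axes that include 0; circle, square and triangle are replicates 1, 2 and 3; the dash with bars is the mean ± SD, n = 3). The groups do not overlap for ADAM10, ADAM17, ADAM9, ADAM19 and ADAM12, which are lower in overexpressing libraries, or for ADAM22 and ADAM23, which are higher, and only ADAM12 passed the test.

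Within the neighbouring pairs ADAM9, ADAM10, ADAM12, ADAM17 and ADAM19 were lower in the overexpressing library in 3 of 3 pairs, and ADAM15, ADAM22 and ADAM23 were higher in 3 of 3. ADAM8 was lower in 2 and higher in 1. With the pairs as a block, edgeR's test called 7 of the 9 genes, 5 lower and 2 higher, where it called 22.7% of all tested genes, 12% lower and 10.7% higher. ADAM12 stayed called with the block (adjusted p 0.0042), and ADAM15 (0.092) and ADAM8 (0.84) did not pass. DESeq2 without a block called 4 of the 9, all lower, namely ADAM9, ADAM10, ADAM12 and ADAM19 (adjusted p = 0.014, 0.023, 0.0043 and 0.0038), against 7.74% of the genes it tested, 4.28% lower and 3.45% higher. With the neighbour offset edgeR called 0 of the 9, against 2.08% of all tested genes, 1.27% lower and 0.814% higher (5 of the 9, all lower, at an unadjusted p under 0.05, against 15.2% of all tested genes, 7.9% lower and 7.29% higher).

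Leaving out both replicate 1 libraries, which stood apart, gave log2 fold changes of -0.35 for ADAM10, -0.19 for ADAM17, -0.38 for ADAM9, -4.02 for ADAM12 and -0.84 for ADAM19. Those of ADAM15, ADAM8, ADAM22 and ADAM23 were 0.11, -0.26, 0.17 and 0.32. Each of the 9 kept its sign with these 4 libraries, and 0 passed the test.

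**Figure D3:**
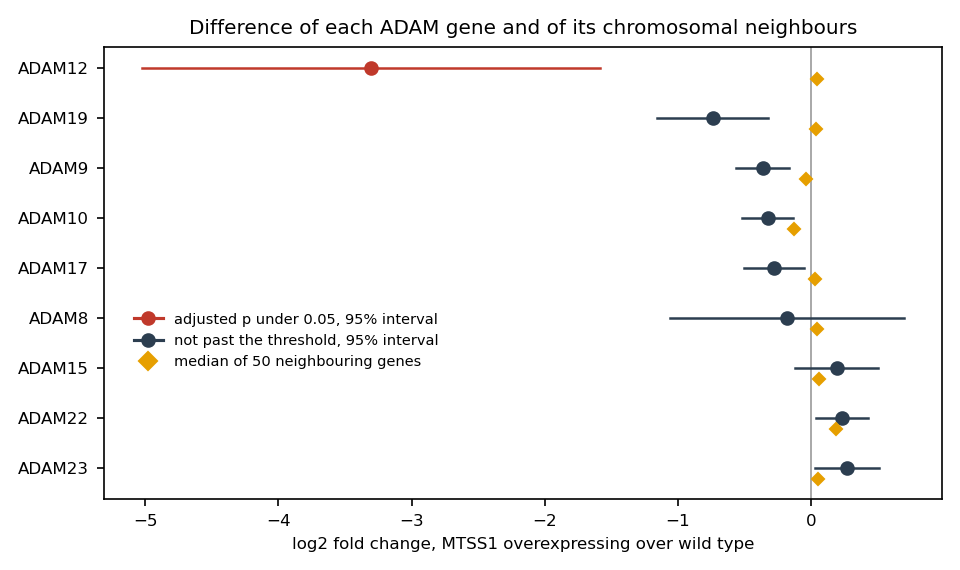
Log2 fold change of each ADAM gene, MTSS1 overexpressing over wild type, with its 95% interval from the fit, not adjusted for the number of genes, and the median of its 50 neighbouring tested genes (diamonds). ADAM12 at -3.31 stands far left of the others, which lie between -0.74 and 0.27, and the neighbours lie between -0.13 and 0.19.

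Summed over the 9 genes, the level per kb of exon was 84.6, 86.1 and 84.8 CPM per kb in wild type libraries and 75.8, 74.9 and 76.5 CPM per kb in the overexpressing ones. The sums did not overlap, and they rest on ADAM17, ADAM9, ADAM10 and ADAM15, which made up 28.3%, 24.3%, 16.1% and 15.8% of the sum in wild type cells. In overexpressing cells ADAM15 made up 20.3% and ADAM10 14.5%. ADAM12, the gene that passed the test, was 0.159% of the sum in wild type cells. All these shares hold per kb of exon and depend on the length used. Per kb of coding sequence ADAM10 came first in wild type cells (80.4 CPM per kb), and ADAM15 (16.96) stood below ADAM22 (22.9).

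Of 12 other ADAM genes, 3 had enough counts to be tested and 0 passed by edgeR (1 by edgeR with the block, 0 by DESeq2, 2 at an unadjusted p under 0.05). Over all tested genes the shares were 4.28% by edgeR, 22.7% with the block, 7.74% by DESeq2 and 19.8% at the unadjusted p. ADAM11, which like ADAM22 and ADAM23 lacks protease activity, stood at 8.58 ± 1.52 and 11.8 ± 1.98 CPM in wild type and overexpressing cells (SD, n = 3; log2 fold change 0.46, adjusted p by edgeR = 0.21; 0.022 with the block). ADAM21 stood at 0.661 ± 0.222 and 0.270 ± 0.050 CPM, and ADAM28 at 0.909 ± 0.374 and 0.623 ± 0.174 CPM. The other 9 genes, among them the testis genes ADAM2 and ADAM18, had at most 5 reads in a group.

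Proteins that mature and carry ADAM10 and ADAM17 were read next. Of 11 tested genes, 1 was higher, 1 lower and 9 did not pass (3 higher and 2 lower with the block), with a median of 0.11. The shares over all tested genes were 1.82% higher and 2.45% lower (10.7% and 12% with the block). The block calls in this list were TSPAN33, TSPAN17, TSPAN15, FURIN and FRMD8. FRMD8, which encodes a partner of the iRhoms and was named after its values were seen, stood at 40.1 ± 3.91 and 34.3 ± 4.46 CPM (adjusted p by edgeR = 0.365, and 0.032 with the block). TSPAN33, a tetraspanin that binds ADAM10, rose from 8.97 ± 0.930 CPM to 15.4 ± 0.806 CPM (SD, n = 3; log2 fold change 0.78, adjusted p by edgeR = 0.017). The related TSPAN17 stood at 70.6 ± 4.61 and 87.8 ± 8.38 CPM (adjusted p by edgeR = 0.10; 0.0026 with the block) and TSPAN15 at 13.75 ± 1.33 and 17.85 ± 0.487 CPM (0.125; 0.024 with the block). FURIN, the convertase that removes ADAM prodomains, fell from 82.1 ± 6.81 CPM to 56.7 ± 5.66 CPM (log2 fold change -0.54, adjusted p by edgeR = 0.023). RHBDF1, which encodes the ADAM17 partner iRhom1, stood at 11.5 ± 1.79 and 9.01 ± 1.31 CPM (adjusted p by edgeR = 0.31).

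Both calls in this list were lost with the neighbour offset and in most fits without 1 library. The 50 genes nearest to FURIN on chromosome 15 centred on -0.29 and those nearest to TSPAN33 on chromosome 7 on 0.27, with offset log2 fold changes of -0.24 and 0.51 (adjusted p by edgeR = 0.30 and 0.10). Without 1 library FURIN held its call only without MTSS1 overexpressing replicate 1, and TSPAN33 only without that library or without wild type replicate 2 (highest adjusted p by edgeR 0.0895 and 0.061).

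Among the inhibitors, 4 of 6 genes were tested and 0 passed by edgeR (2 by edgeR with the block, 1 by DESeq2, 2 at an unadjusted p under 0.05). The shares over all tested genes were 4.28% by edgeR, 22.7% with the block, 7.74% by DESeq2 and 19.8% at the unadjusted p. SFRP1, a secreted Wnt antagonist that also inhibits ADAM10, stood at 7.63 ± 0.588 CPM in wild type against 2.04 ± 1.57 CPM in overexpressing cells, without overlap and with overexpressing replicate 2 the lowest at 0.231 CPM (log2 fold change -1.94, adjusted p by edgeR = 0.105; 0.0048 with the block). Without that library SFRP1 was at -1.36 and passed (adjusted p by edgeR = 0.025). TIMP1, which blocks ADAM10 among many metalloproteinases, stood at 115 ± 14.2 and 86.1 ± 16.6 CPM (log2 fold change -0.42, adjusted p by edgeR = 0.14; 9.3e-04 with the block). TIMP2 stood at 200 ± 21.6 and 219 ± 32.3 CPM and RECK at 23.2 ± 1.67 and 22.2 ± 1.22 CPM. TIMP3, the main physiological inhibitor of ADAM17, had 0 reads in wild type and 3 in overexpressing libraries, and TIMP4 had 0 in all 6.

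The EGF family, whose ligands are released by ADAM10 and ADAM17, gave 1 higher and 1 lower gene of 9 tested (1 higher and 2 lower with the block). Over all tested genes 1.82% were called higher and 2.45% lower (10.7% and 12% with the block). NRG1, a ligand of ERBB3 and ERBB4, rose from 12.7 ± 1.27 CPM to 22.9 ± 0.762 CPM (SD, n = 3), a log2 fold change of 0.85 (SE 0.12, adjusted p by edgeR = 0.0081), with neighbours at -0.05 and the call kept in all 6 fits without 1 library. Without both replicate 1 libraries NRG1 was at 0.87 and did not pass (adjusted p by edgeR = 0.073). TGFA, an EGF receptor ligand shed by ADAM17, fell from 27.6 ± 3.15 CPM to 17.3 ± 1.87 CPM (log2 fold change -0.67, SE 0.13, adjusted p by edgeR = 0.025). Its neighbours had a median of 0.05 and it passed with the offset (0.028), but without 1 library it passed only without wild type replicate 2 (highest 0.10). HBEGF, another such ligand, stood at 20.4 ± 5.42 and 13.7 ± 1.65 CPM (adjusted p by edgeR = 0.15; 0.0060 with the block), and it passed without wild type replicate 2 (0.037). BTC stood at 2.21 ± 0.273 and 2.96 ± 0.333 CPM and the receptor gene ERBB4 at 0.495 ± 0.238 and 0.872 ± 0.147 CPM, neither of which passed. AREG had 15 reads in each group and was not tested.

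Of 42 other shed proteins, 29 were tested, 0 were higher, 6 lower and 23 did not pass (4 higher and 10 lower with the block), with a median of -0.07. Over all tested genes 1.82% were called higher and 2.45% lower (10.7% and 12% with the block). Earlier results had shown ICAM1 and ALCAM to be lower, so their place on the list is no independent sign of direction. The adhesion molecules ICAM1 and ALCAM fell by 2.24 and 1.82 on the log2 scale (adjusted p by edgeR = 9.3e-04 and 3.8e-04). APLP2, a relative of the amyloid precursor protein and an ADAM10 substrate, fell from 840 ± 69.1 CPM to 483 ± 12.5 CPM (log2 fold change -0.80, SE 0.09, adjusted p by edgeR = 0.0025), with neighbours at -0.18 and a call in all 6 fits without 1 library. APP itself stood at 553.6, 582.7 and 542.4 CPM in wild type against 567.5, 600.8 and 552.3 CPM in overexpressing libraries (log2 fold change 0.04, adjusted p by edgeR = 0.86), a gene named after its values were seen. The heparan sulfate proteoglycan SDC4 and the receptor kinase MERTK fell by 0.44 and 0.38 (adjusted p by edgeR = 0.027 and 0.038), and the junction protein gene F11R, also named after its values were seen, by 0.67 (0.044). SDC4, MERTK and F11R lost their calls in each of the 6 fits without 1 library (highest 0.11, 0.14 and 0.13). MERTK and F11R had neighbours at -0.23 and -0.39 and did not pass with the offset (0.47 and 0.45). TNF, the substrate that gave TACE its name, and MICB were listed at 0. In their span of chromosome 6 the broadly expressed genes FLOT1 and DDX39B were also listed at 0, so neither TNF nor MICB can be read as absent. The span was not at 0 throughout, as MICA, between FLOT1 and DDX39B, had 59 and 58 reads in the wild type and overexpressing groups.

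Gamma-secretase, which cuts the membrane stubs that sheddases leave, had 6 of 6 subunit genes tested and 0 called (1 with the block, 1 by DESeq2 and 1 at an unadjusted p under 0.05). Over all tested genes the shares were 4.28% by edgeR, 22.7% with the block, 7.74% by DESeq2 and 19.8% at the unadjusted p. NCSTN, its substrate-docking subunit, stood at 107 ± 19.5 and 79.2 ± 9.73 CPM (log2 fold change -0.43, adjusted p by edgeR = 0.12; 9.5e-04 with the block), with neighbours on chromosome 1 at -0.39. The fold changes of PSEN2, APH1B and PSENEN were 0.18, 0.07 and -0.14 on the log2 scale, none past the threshold (adjusted p by edgeR = 0.70, 0.86 and 0.60).

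Among 15 genes of proteins that bind ADAM cytoplasmic tails, 0 were higher, 1 lower and 14 did not pass (3 higher and 3 lower with the block). The shares over all tested genes were 1.82% higher and 2.45% lower (10.7% and 12% with the block). SNX33, a membrane-bending sorting nexin, fell from 48.5 ± 3.55 CPM to 32.0 ± 2.26 CPM (log2 fold change -0.60, adjusted p by edgeR = 0.015). Like FURIN and ADAM10 it lies on chromosome 15, its neighbours had a median of -0.28, and with the offset it did not pass (0.18). It held the call in 3 of the 6 fits without 1 library, those without MTSS1 overexpressing replicate 1 or 2 or wild type replicate 2 (highest 0.068). SH3PXD2A, the invadopodium scaffold TKS5 that binds ADAM12, ADAM15 and ADAM19, stood at 11.9 ± 2.53 and 7.30 ± 0.603 CPM (adjusted p by edgeR = 0.0655; 0.010 with the block and 0.0355 without wild type replicate 2), and its relative SH3PXD2B at 43.3 ± 1.44 and 55.6 ± 6.46 CPM (0.0915; 0.0094 with the block). The endophilin gene SH3GL2 stood at 2.03 ± 0.188 and 3.99 ± 0.599 CPM (0.0545; 0.011 with the block) and FHL2 at 60.2 ± 5.10 and 44.8 ± 4.88 CPM (0.060; 9.5e-04 with the block).

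Of the LGI proteins, the secreted ligands of ADAM22 and ADAM23, only LGI2 had enough reads to be tested. It stood at 0.678 ± 0.245 CPM in wild type against 2.19 ± 0.617 CPM in overexpressing cells (SD, n = 3), without overlap (log2 fold change 1.70, adjusted p by edgeR = 0.0525; 0.0043 with the block and 0.0498 with the neighbour offset). LGI1 had 0 reads in all 6 libraries, LGI3 had 4 and 2 and LGI4 had 22 and 16 in the wild type and overexpressing groups. DLG4, the scaffold of the ADAM22 tail in neurons, stood at 23.8 ± 2.95 and 26.0 ± 5.01 CPM.

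**Figure D4:**
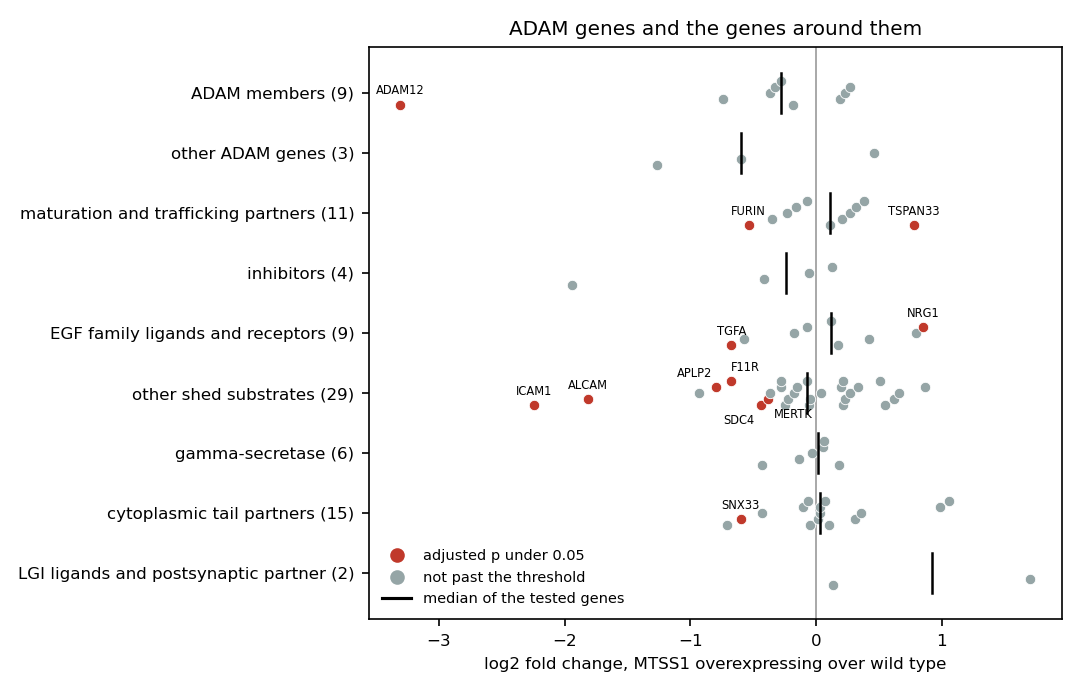
Log2 fold changes, MTSS1 overexpressing over wild type, of the tested genes of each list (number in brackets), with genes at an adjusted p under 0.05 named in red and a bar at each list's median. Of the ADAM genes only ADAM12 is red, and of the other lists 11 genes are, with NRG1 and TSPAN33 the only ones right of 0.

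Among tested genes that averaged 5 CPM or more, the 5 whose log2 level followed that of ADAM12 most closely over the 6 libraries were SMG5, PAQR7, KRT8, MTRF1L and RPS3 (log2 of CPM plus 0.1; Pearson r 0.998, 0.997, 0.996, 0.994 and 0.993). These correlations describe 6 libraries that share the split into groups, and ADAM12 contributes 1 value of 0 reads to them.

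Since the study's title concerns NF-κB, the 250 bases before the annotated start of each gene (RefSeq, GRCh38.p14; 8 of 9 genes matched) were searched on both strands for the κB consensus and for the AP-1 motif TGANTCA, where N is any base. A κB match was present in 0 of the 8 and in 5.21% of 35116 promoters, and an AP-1 match in 0 of the 8 and in 6.57%. This says only that these letters are not in those windows.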

How the data were processed

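Poly(A) RNA libraries of 3 wild type and 3 MTSS1-overexpressing H1299 samples were sequenced as single reads of 50 cycles with a directional kit, per the labels' protocols. The authors deposited raw read counts per Ensembl gene, and per the submitters' processing notes bcl2fastq, HISAT2 2.1.0, HTSeq and GRCh38 were used; the strand setting and annotation release were not given in the sources used here. Symbols came from a current name table or GENCODE 29, for 41481 of 64253 identifiers, and coordinates, exon lengths and transcripts from GENCODE 29 (GRCh38). The deposited counts went into edgeR 4.0.16 (R 4.3.3): TMM, filterByExpr, quasi-likelihood test, two-sided, Benjamini-Hochberg adjustment over 16091 genes, threshold 0.05. SEs are the log2 fold change over the root of F, and intervals use the fit's degrees of freedom. DESeq2 1.42.0 was an alternative. The fit was tested on simulated data with independent libraries. That simulation held no pair effect, so it does not cover correlation within neighbouring title numbers.

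Replicates of a group were further apart than counting noise gives (chi-square over its degrees of freedom 14.7 to 28.0), so none was treated as a copy. Deviations from group means correlated within the neighbouring title numbers at 0.66, 0.34 and 0.38 over genes, and between other pairs of the 2 groups at -0.41 to 0.10. The block fit is printed beside each named gene whose call it changes. The neighbour offset subtracts the median log2 fold change of the 50 nearest tested genes on the chromosome. Named genes are MTSS1, the 9 ADAM genes and up to 5 genes of each of 8 lists by smallest adjusted p. The members and lists were chosen with earlier results of these data known. Counting intervals and reads near 0 cover counting error only. Protein sequences were translated from coding sequence for identity alone and are not printed.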

Additional observations from a re-analysis of the deposited data

How the results depend on the processing

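The number of ADAM genes called was 1. It was 4 with DESeq2, 3 with library totals in place of TMM, 4 without a low-count filter, 7 with neighbouring title numbers as a replicate block, 0 with the neighbour offset, 0 without both replicate 1 libraries and 0 to 1 when 1 library was left out. Over all tested genes 688 were called, against 1185 with DESeq2, 1489 without the filter, 3651 with the replicate block, 330 with the neighbour offset, 132 without both replicate 1 libraries and 145 to 346 without 1 library. Over the 8 lists 11 genes were called, against 18, 20, 33, 7 and 3 under the same 5 settings, in the same order, and 4 to 9 without 1 library. The 8 lists had 3, 11, 4, 9, 29, 6, 15 and 2 tested genes, in the order of the text. Of all tested genes 4.28% were called, 7.74% by DESeq2, 22.7% with the replicate block and 2.08% with the neighbour offset. The 11 include ICAM1 and ALCAM, which earlier results had shown to be lower. RLE factors and a filter of 10 counts in 3 libraries kept the counts of ADAM genes, all genes and list genes called within 1.5 times. The causes of these shifts were not tested; fits with fewer libraries have fewer degrees of freedom.

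Of 614 values of 44 named genes under the alternatives, 515 kept their direction and side of the threshold, 47 lost and 47 gained a call, and 5 reversed, none of them called. TIMP2 and DLG4 had log2 fold changes of -0.011 and -0.0086 with the neighbour offset. Without 1 library, ADAM8 ranged from -0.41 to 0.19 (the latter without wild type replicate 2), APH1B from -0.064 (without wild type replicate 3) to 0.14 and DLG4 from -0.036 (without MTSS1 overexpressing replicate 2) to 0.22. With 87 and 7 reads in the wild type and overexpressing groups for ADAM12, and 97 and 71 for ADAM8, depth limits those values.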

Other observations

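The ADAMTS family holds the secreted relatives of the ADAM proteases, which cut matrix proteoglycans and procollagens, and the ADAMTS-like proteins without a protease domain. This list of 25 genes was added after the data were seen. Of 13 tested, 0 were higher and 1 lower by edgeR (1 and 4 with the block, 0 and 2 by DESeq2, and 1 and 4 at an unadjusted p under 0.05), with a median log2 fold change of -0.17. The shares over all tested genes were 1.82% higher and 2.45% lower by edgeR, 10.7% and 12% with the block. They were 3.45% and 4.28% by DESeq2, and 9.15% and 10.7% at the unadjusted p. ADAMTSL3, which encodes an ADAMTS-like matrix protein, fell from 1.93 ± 0.295 CPM to 0.205 ± 0.178 CPM (SD, n = 3), a log2 fold change of -3.30 (adjusted p by edgeR = 0.035). Its neighbours on chromosome 15 centred on -0.39, and with the offset it missed the threshold (0.076). Without 1 library its call held only without MTSS1 overexpressing replicate 2 (highest adjusted p by edgeR 0.12).

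ADAMTS9 stood at 1.08 ± 0.220 CPM in wild type against 0.0979 ± 0.170 CPM in overexpressing cells (adjusted p by edgeR = 0.0545; 0.0061 with the block and 0.0052 by DESeq2). Its overexpressing libraries held 4, 0 and 0 reads, and it passed without replicate 1, the library with the 4 reads (adjusted p by edgeR = 0.017). ADAMTS13, the protease of von Willebrand factor, stood at 3.29 ± 1.06 and 1.63 ± 0.286 CPM (adjusted p by edgeR = 0.107; 0.014 with the block). ADAMTSL1 had 20 reads in wild type and 0 in overexpressing libraries and was too low to be tested. The aggrecanase gene ADAMTS4 had 4 and 2 reads, and ADAMTS5 had 4 and 7, in the wild type and overexpressing groups. ADAMTS1 stood at 9.62 ± 5.55 and 15.9 ± 0.810 CPM, and PAPLN at 40.75 ± 7.30 and 52.8 ± 13.7 CPM, neither past the threshold (adjusted p by edgeR = 0.36 and 0.32). PAPLN passed with the block (0.0036) and ADAMTS1 did not (0.0615).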
